A study of Mus musculus with 4 samples.

Results

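Microtubule-associated proteins (MAPs) and stathmins were examined in neurons made from mouse embryonic stem (ES) cells. The genes were chosen by symbol as 6 MAP genes (Map1a, Map1b, Map2, Map4, Map6 and Mapt) and 4 stathmin genes (Stmn1, Stmn2, Stmn3 and Stmn4). All 10 were listed in every library, among 34968 symbols shared by the 4 libraries, and all 10 were among the 12975 genes tested. RNA of sorted tdTomato+ neurons, taken from embryoid bodies on day 12 of differentiation, was sequenced in bulk, with 2 libraries for each of 2 lines. Both lines came from a C57/BL6 ES line carrying Dlx6-Cre and the Ai9 reporter, which marks subpallial neurons, and both were differentiated with the Wnt inhibitor XAV-939 and the Sonic hedgehog agonist SAG. The N/D line carries Nkx2-1, driven by Nestin sequences together with a tetracycline transactivator, and Dlx2 under the responsive promoter. The N/D/S line has the same Nkx2-1 transgene, and St18 with a V5 tag was placed beside Dlx2 in the same cassette. The lines were grown from picked drug-resistant colonies, so the effect of St18 and a difference between clones cannot be told apart. The labels number the libraries as replicates and do not say whether they came from separate cultures, so p-values measure the spread between these libraries, which may be technical.

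Microtubules grow and shrink from their ends, and neurons set this behaviour with proteins that bind the lattice and proteins that bind free tubulin. Tau (Mapt), Map2 and Map4 share a family of microtubule-binding repeats, with tau concentrated in axons, Map2 in dendrites and cell bodies, and Map4 found in most cell types. Map1a and Map1b are very long proteins cut into heavy and light chains, Map1b prominent in growing axons and Map1a in mature neurons, and Map6 (STOP) protects microtubules from cold. Stathmins bind tubulin dimers and promote disassembly. Stmn1 is cytosolic and also abundant in dividing cells, whereas Stmn2 (SCG10), Stmn3 (SCLIP) and Stmn4 (RB3) are neuronal and anchored to membranes through a cysteine-bearing amino terminus.

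That difference within the stathmin family can be read in the coding sequences, which are shown because the abundance of the cytosolic and membrane-anchored forms is compared below. The lines give the opening 90 bases (30 codons) of the coding sequence, 5′ to 3′, from the longest transcript with a complete coding sequence in GENCODE M21 on GRCm38. Capitals mark cysteine codons in frame.
Stmn1: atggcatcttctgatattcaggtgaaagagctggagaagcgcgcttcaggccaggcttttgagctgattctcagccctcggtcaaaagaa
Stmn2: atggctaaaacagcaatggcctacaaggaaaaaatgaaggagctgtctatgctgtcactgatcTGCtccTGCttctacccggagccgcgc
Stmn3: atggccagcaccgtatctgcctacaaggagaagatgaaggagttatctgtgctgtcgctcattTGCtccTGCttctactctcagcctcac
Stmn4: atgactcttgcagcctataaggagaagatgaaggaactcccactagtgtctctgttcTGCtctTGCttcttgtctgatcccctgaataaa
Stmn1 had 0 cysteine codons in this stretch and 0 in its whole coding sequence of 149 codons. Stmn2 and Stmn3 each had a pair, at codons 22 and 24, and Stmn4 had a pair at codons 20 and 22. Identity of aligned coding bases ran from 70.4% (Stmn1 with Stmn3) to 74.5% (Stmn1 with Stmn2).

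The authors deposited 1 value per gene symbol in TPM, a transcript abundance corrected for length and scaled to the same total in each library. Levels of different genes are therefore set side by side, with the limit that these libraries did not represent long and short transcripts alike (below). TPM keeps no read counts, so library depth is unknown. The library labelled N/D replicate 1 stood apart, with 13504 symbols above 0 against 17220 to 20878 in the other libraries. Of 6139 genes that reached 10 TPM in all the others, it listed 613 at 0. St18 itself stood at 28.5 and 26.6 TPM under the N/D label against 44.5 and 15.9 TPM under the N/D/S label, in replicate order, so St18 did not separate the lines and every direction below rests on the labels. Markers of the labelled cell type were present, beside those of progenitors. All 6 pan-neuronal markers (Tubb3, Snap25, Syt1, Rbfox3, Elavl3 and Elavl4) and all 7 GABAergic subpallial markers (Gad1, Gad2, Slc32a1, Dlx1, Dlx2, Dlx5 and Dlx6) had at least 1 TPM in every library, with sums of 2197 to 3496 TPM and 539.4 to 1246 TPM. The 6 neural progenitor markers (Sox2, Nes, Hes5, Vim, Fabp7 and Pax6) summed to 411.9 and 1173 TPM in N/D and 487.9 and 693.6 TPM in N/D/S. Fabp7 ran from 133.6 to 906.5 TPM and Vim from 78.3 to 219.2 TPM, while Sox2, Nes, Hes5 and Pax6 lay between 0 and 86.3 TPM. Sums over different genes do not compare the amounts of cell types. Cycling markers summed to 66.2 and 259.6 TPM in N/D and 101.9 and 122.6 TPM in N/D/S, with Mki67 and Cdk1 at 0 in that same N/D library (replicate 1).

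Stmn1 was the most abundant member and Map1a the least. Stmn1 had a mean of 5832 TPM over the 4 libraries, and its lowest library, at 4377 TPM, lay above the highest library of any other member. Stmn3 followed at 1466 TPM, then Stmn2 at 1066, Map1b at 989.2, Stmn4 at 749.6, Mapt at 618.1, Map4 at 353.8, Map2 at 216.3 and Map6 at 95.2 TPM. The ranges of each neighbouring pair from Stmn3 to Map6 overlapped, so that part of the order is not fixed by these libraries. Map1a had a mean of 7.00 TPM, and its highest library, at 13.2 TPM, lay below the lowest library of every other member. In each library the 10 genes together held 0.836% to 1.42% of the summed TPM, lowest in N/D/S replicate 2.

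**Figure D1:**
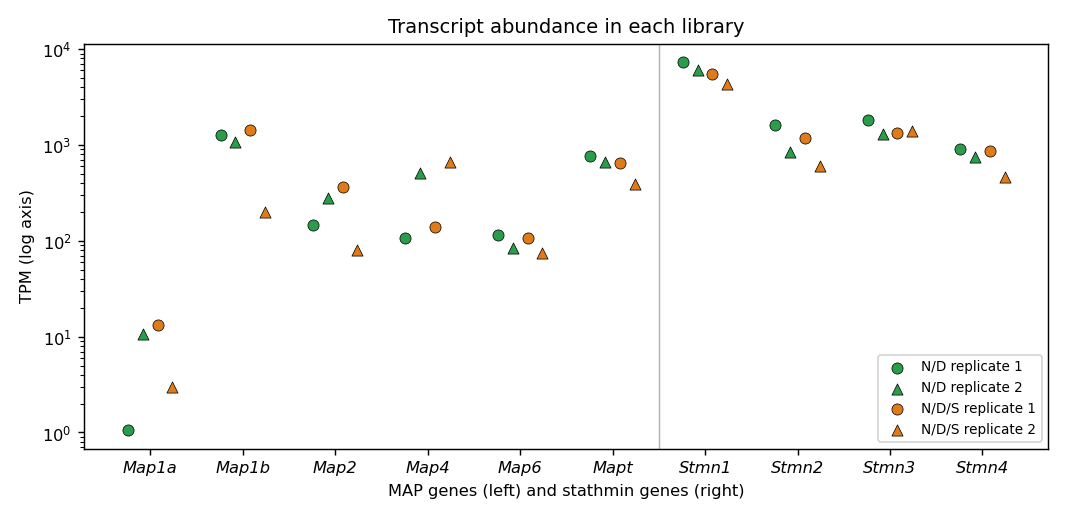
TPM (log axis) of the 6 MAP genes and 4 stathmin genes in each library, green for N/D and orange for N/D/S, circles for replicate 1 and triangles for replicate 2, 1 point per library. Stmn1 lies between 4377 and 7286 TPM in all 4 libraries, Map1b is low in N/D/S replicate 2 at 202.0 TPM, and Map4 is high in both replicate 2 libraries.

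Stmn1, the cytosolic stathmin, had 7286 and 6095 TPM in N/D and 5572 and 4377 TPM in N/D/S, replicate 1 before replicate 2. Both N/D/S libraries lay below both N/D libraries. On the scale of log2(TPM + 1), the log2 fold change, always given as N/D/S relative to N/D, was −0.43 (standard error 0.96). Among 6 markers of cycling cells, a cell type in which Stmn1 is also abundant, Top2a (24.3 and 38.3 TPM in N/D, 17.3 and 6.17 in N/D/S) and Cenpf (5.36 and 17.5 TPM, then 3.38 and 4.22) were likewise lower in both N/D/S libraries. Mki67, Ccnb1, Cdk1 and Birc5 overlapped between the lines, and the summed level, given above, was highest in N/D replicate 2. The part of cycling cells in the Stmn1 values was not tested.

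Stmn2, a membrane-anchored stathmin of growth cones, had 1631 and 852.9 TPM in N/D and 1175 and 606.2 TPM in N/D/S. The replicate 1 library was the higher in each line, and the lines overlapped. Stmn2 was lower in N/D/S within each replicate number, by nearly equal log2 differences of −0.47 and −0.49. Stmn4 had 917.3 and 747.9 TPM in N/D and 871.9 and 461.2 TPM in N/D/S. Its values overlapped too, with N/D/S replicate 2 the lowest library. Stmn3 varied least of the 10 genes, with 1823 and 1291 TPM in N/D and 1351 and 1399 TPM in N/D/S. The highest Stmn3 library was 1.41 times the lowest, and N/D/S was lower within replicate 1 (−0.43) and higher within replicate 2 (0.12).

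Mapt, which encodes tau, had 768.1 and 664.3 TPM in N/D and 643.6 and 396.3 TPM in N/D/S. The lines did not overlap, although N/D/S replicate 1 and the lower N/D library differed by only −0.05 on the log2 scale. The log2 fold change was −0.50 (standard error 0.97), and −0.15 with N/D/S replicate 2 left out. Of the 6 pan-neuronal markers, Elavl3 (18.9 and 37.5 TPM in N/D, 17.7 and 7.89 in N/D/S) and Rbfox3 (43.4 and 47.2 TPM, then 42.8 and 12.2) were also lower in both N/D/S libraries, Tubb3 (2048 and 1509 TPM, then 2774 and 2455) was higher in both, and 3 overlapped. Their part in the Mapt values was not tested. Mapt and Stmn1 were the 2 members with both N/D/S libraries below both N/D libraries, and 0 members lay above. Over all tested genes, 8.23% were below in this way and 8.69% above. Among the 7011 genes at 1 TPM or more in every library, as all members were, 961 were below and 458 above.

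Map2, the dendritic relative of tau, had 145.0 and 278.5 TPM in N/D and 361.3 and 80.5 TPM in N/D/S, so the N/D/S libraries were the highest and the lowest of the 4. Its log2 difference was 1.31 within replicate 1 and −1.78 within replicate 2. Map2 lies on chromosome 1 of GRCm38, from 66175273 to 66442583 on the plus strand. Genes of that chromosome were lower relative to other genes in each of the 4 pairs of an N/D/S and an N/D library, pairs that share libraries. With log2 values centred on transcript length, the median of 732 other chromosome 1 genes was 0.22 to 0.63 below that of the 12120 genes elsewhere in the 4 pairs of libraries, as differences of −0.22 to −0.63. It was also −0.30 between the N/D libraries, replicate 2 minus replicate 1, and −0.03 between the N/D/S libraries. The length-centred differences of Map2 itself ran from −2.01 to 0.06 in the same 4 pairs. Other chromosomes were not examined singly, so how far such medians usually vary is not known. The part of chromosome 1 in the Map2 values was not tested.

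Map4, the MAP of most cell types, followed the replicate number and not the line. It had 107.8 TPM in N/D replicate 1 and 140.3 TPM in N/D/S replicate 1, against 505.1 TPM in N/D replicate 2 and 661.8 TPM in N/D/S replicate 2. The replicate 2 libraries were 4.68 and 4.72 times the replicate 1 libraries in N/D and N/D/S, which is 2.22 and 2.23 on the log2 scale. Within a replicate number, N/D/S was above N/D by 0.38 and 0.39. The fitted log2 fold change of 0.38 turned to −0.73 when either N/D replicate 1 or N/D/S replicate 2 was left out. Only 0.84% of tested genes (109) were at least 2 log2 units higher in replicate 2 in both lines, and Map4 was the single member among them. A further 0.786% were lower by as much, 0 members among them. The deposited tables also differ by replicate number, with 203 symbols listed only in the replicate 1 tables and 210 only in the replicate 2 tables. Markers of several other cell types, though not of all, were higher in replicate 2 as well. The 6 oligodendrocyte lineage markers summed to 0 TPM and 17.9 TPM in replicate 1 (N/D first), and to 183.9 and 59.3 TPM in replicate 2. The 4 astrocyte markers summed to 0.0807 and 6.45 TPM in replicate 1 and to 35.2 and 25.0 TPM in replicate 2. The 3 pluripotency markers summed to 0.247 and 0.472 TPM in replicate 1 and to 19.8 and 25.0 TPM in replicate 2. The sums of neural progenitor markers (411.9 and 487.9 TPM, then 1173 and 693.6) and mesenchymal markers (0.0431 and 7.24, then 30.2 and 20.9) were split likewise. So was the sum of cycling markers (66.2 and 101.9, then 259.6 and 122.6), although Mki67, Top2a and Cenpf overlapped. Among the progenitor markers only Fabp7 was split this way (133.6 and 179.1, then 906.5 and 505.6). Vim (219.2 and 150.1, then 122.9 and 78.3) and Pax6 (25.4 and 14.1, then 13.65 and 7.33) were lower in replicate 2, and Sox2, Nes and Hes5 overlapped. Excitatory neuron markers were lower in replicate 2 (17.3 and 19.0, then 3.17 and 1.27), and microglial (0 and 1.25, then 1.36 and 0.0652) and endothelial markers (38.8 and 5.11, then 2.41 and 8.06) were not split. The part of the symbol lists or of other cells in the Map4 values was not tested, and in bulk samples fewer cells of a type cannot be told apart from less RNA per cell.

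Map1b, abundant in extending axons, had 1260 and 1074 TPM in N/D and 1421 TPM in N/D/S replicate 1, but 202.0 TPM in N/D/S replicate 2. A single library therefore set the line difference, a log2 fold change of −1.12 (standard error 1.21), the largest of the members in size. Without the library labelled N/D/S replicate 2 the value was 0.29. Map1a, its relative of mature neurons, had 1.05 and 10.7 TPM in N/D and 13.2 and 3.02 TPM in N/D/S. Map1a was thus low in the same library as Map1b and lowest in N/D replicate 1, where Map1b was not low. The log2 fold change of Map1a was 0.63 (standard error 1.26), a scale that understates changes at such low levels, and it was −0.63 with N/D replicate 1 left out and −0.29 with N/D/S replicate 1 left out. Map1b exceeded Map1a by 66.9 to 1198 times, the highest ratio in N/D replicate 1. Map6, a MAP that protects microtubules from cold, had 116.1 and 84.6 TPM in N/D and 106.2 and 74.0 TPM in N/D/S. Its lines overlapped, with a spread of 1.57 times from lowest to highest library.

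The line difference was fitted with limma to log2(TPM + 1) of all 12975 genes, and 0 of the 10 members passed an adjusted p of 0.05 in either direction. The share of all tested genes that passed was 0% higher and 0% lower in N/D/S. The Benjamini-Hochberg adjusted limma p was 1 for each member, and the lowest unadjusted limma p was 0.389, for Map1b. Of all tested genes, 0.0617% had an unadjusted p under 0.05, against 0 members. An exact permutation test (two-sided) of 2 libraries against 2 cannot go below p = 0.333. The standard errors of the members, 0.96 to 1.27 log2 units, draw on the spread of all genes and leave room for changes of several fold in either direction. The residual SDs of single members ran from 0.22 (Stmn1) to 1.57 (Map4), and they were under 0.5 for Stmn1, Stmn3, Stmn4, Map6 and Mapt.

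The remaining log2 fold changes were −0.48 for Stmn2, −0.38 for Stmn4, −0.23 for Map2, −0.16 for both Stmn3 and Map6, and 0.38 for Map4. Of the 10 values (Map1a, Map1b, Mapt and Stmn1 are given above), 8 were below 0, and the median was −0.31 over the 10 members, −0.20 over the MAP genes and −0.41 over the stathmin genes, beside 0.26 over all tested genes. The gap rested on N/D replicate 1, since with that library left out the medians were −0.35 over the members and −0.29 over all tested genes. The MAP median was −0.95 with length centring. Leaving out N/D replicate 1 gave medians of −0.67 for MAPs and −0.13 for stathmins, and leaving out N/D/S replicate 2 gave 0.19 and −0.09. The median of all genes that reached 1 TPM in each of the 4 libraries was −0.15. Map6, Mapt, Stmn1, Stmn2 and Stmn4 were lower in N/D/S in replicate 1 and again in replicate 2, 5 of 10 members against 17.9% of all tested genes. The shares are not fully comparable, since genes at 0 in N/D replicate 1 could not be lower in N/D/S. Such genes were 26.1% of all tested genes and included 0 members. The 5 members were lower for the libraries as numbered, and N/D/S replicate 1 was above N/D replicate 2 for Stmn2 (0.46), Map6 (0.33) and Stmn4 (0.22). Map4 alone was higher within both (15.9% of all tested genes). Map1a, Map1b and Map2 were higher in replicate 1 and lower in replicate 2, a combination shown by 56.6% of all tested genes, and Stmn3 showed the opposite combination (9.06%). Without the library labelled N/D replicate 1, Mapt and Stmn1 still lay below the N/D library that was left, beside 31.9% of tested genes, and Stmn3 lay above it, beside 13.3%. The log2 fold change of Stmn2 was then −0.015. Without N/D/S replicate 2, Map2 (0.84), Map6 (0.10) and Stmn4 (0.07) turned above 0, Mapt was at −0.15 and Stmn2 at −0.01, and the median was 0.03 over the members and 0.61 over all tested genes.

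**Figure D2:**
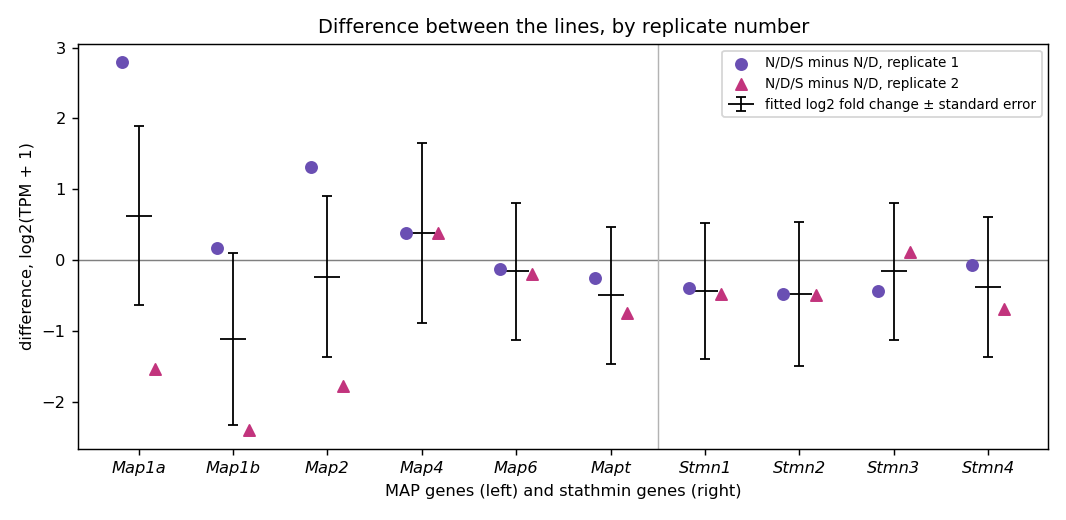
Differences of N/D/S minus N/D on the log2(TPM + 1) scale within replicate 1 (purple circles) and replicate 2 (pink triangles), with the fitted log2 fold change (black bar) and its standard error (whiskers, 2 libraries a line). Map1a, Map1b and Map2 have points on opposite sides of 0, at 2.79 and −1.54 for Map1a, while the points of Map4 and Stmn2 nearly coincide and whiskers extend 0.96 to 1.27 log2 units to either side.

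The members fall into long and short transcripts, which the libraries did not represent alike. The longest annotated transcripts measure 11825 bases for Map1a, 11808 for Map1b, 6258 for Map2, 6091 for Map4, 5253 for Mapt and 4920 for Map6. For the stathmins they measure 3413 bases for Stmn2, whose longest coding transcript is 2073 bases, 1361 for Stmn4, 1136 for Stmn3 and 1060 for Stmn1. Among 1929 tested genes with transcripts under 1500 bases, the median difference of N/D/S minus N/D was 0 within replicate 1 and 0.03 within replicate 2. Among 2087 genes of 5000 bases or more but under 8000 it was 1.69 within replicate 1 and −1.02 within replicate 2, and among 722 genes with 8000 or more it was 1.45 and −1.14. The labels give same-numbered libraries nothing in common but the number, although their tables share a symbol list, so the other combinations are given too. Across numbers the class of 5000 bases or more but under 8000 was at 0.23 (N/D/S replicate 1 minus N/D replicate 2) and 0.61 (N/D/S replicate 2 minus N/D replicate 1). In 3 of the 4 combinations of libraries, longer genes were thus higher under the N/D/S label. Map1a had the signs of its class in all 4 combinations, and each of the other 5 MAP genes departed from its class in at least 1. Map1b (−2.63), Mapt (−0.95), Map2 (−0.84) and Map6 (−0.64) were lower in N/D/S replicate 2 than in N/D replicate 1.

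Set against genes of like length, the long members did not all behave alike. Within replicate 2, Map4 (0.39), Map6 (−0.19) and Mapt (−0.74) lay above the median of their length class, and Map1a (−1.54), Map1b (−2.40) and Map2 (−1.78) lay below. Within replicate 1, Map1b (0.17), Map2 (1.31), Map4 (0.38), Map6 (−0.13) and Mapt (−0.26) lay below the medians of their classes, which were 1.43 to 1.69, and Map1a (2.79) lay above. Relative to the mean of the other libraries, the median gene of 8000 or more bases was at −1.14 in N/D replicate 1 and −0.73 in N/D/S replicate 2. The gap between genes of 8000 or more and under 1500 bases, −0.996 in N/D replicate 1 and −0.911 in N/D/S replicate 2, became 0.016 and −0.66 when length was the median over annotated transcripts instead of the longest, a measure that left 49 genes in the top class. By that measure N/D replicate 1 was at −0.73 for genes under 1500 bases and at −1.22 to −1.30 for the 3 classes from 1500 up to 8000 bases, so genes in those classes were still the lower ones. After each library was centred within 20 bins of transcript length, the log2 fold change was −1.32 for Mapt (standard error 1.08), −1.61 for Map1b (1.06), −0.97 for Map2 (0.93), −0.93 for Map6 (1.11) and −1.21 for Stmn2 (1.14). Map1a moved to 0.13 and Map4 changed sign, to −0.35, while Stmn1 (−0.33), Stmn3 (−0.06) and Stmn4 (−0.38) moved little. The same centring took the median of all tested genes from 0.26 to −0.12. In that fit the Benjamini-Hochberg adjusted limma p of each member was 0.998 or 1. The centring subtracted bin medians. Of genes from 1500 up to 8000 bases, 22.6% to 29.4% a class were at 0 in N/D replicate 1. Bin medians differed by 2.68 (Mapt) and 2.54 (Map2) between the replicate 1 libraries, where the median difference of their class was 1.69. For N/D/S replicate 1 minus N/D replicate 2 these were 0.28, 0.31 and 0.23. The part of genes at 0 in the centred values was not tested. Centred on the longest coding transcript, Stmn2 was at −0.87 and Mapt at −1.47.

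**Figure D3:**
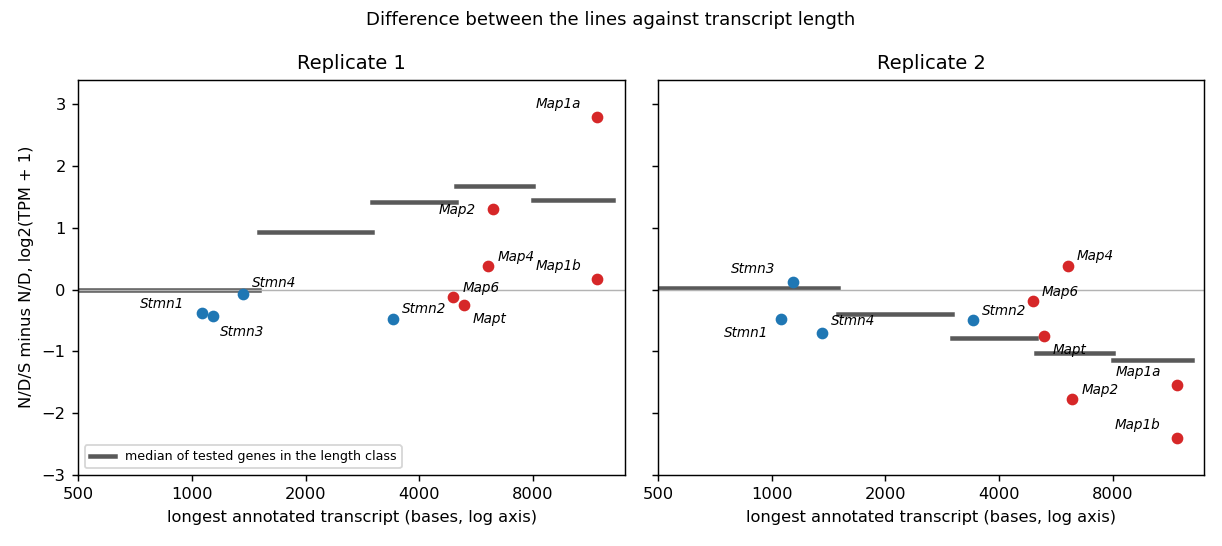
Difference of N/D/S minus N/D on the log2(TPM + 1) scale against the longest annotated transcript of each gene (bases, log axis), for replicate 1 (left) and replicate 2 (right). Red points are MAP genes, blue points are stathmin genes, and grey bars are medians of all tested genes in 5 length classes. The bars run from 0 up to 1.69 in replicate 1 and from 0.03 down to −1.14 in replicate 2.

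Within a library the make-up of each family can be compared without regard to scaling. Stmn1 held 62.5% and 67.8% of the summed stathmin TPM in N/D and 62.1% and 64.0% in N/D/S, so the share of the cytosolic form overlapped between the lines. Stmn2 held 13.99% and 13.1% in replicate 1 (N/D first), and 9.49% and 8.86% in the replicate 2 libraries. The Stmn2 share therefore followed the replicate number, and the Stmn1 level was 4.47 and 4.74 times that of Stmn2 in replicate 1 against 7.15 and 7.22 times in replicate 2. Stmn3 held 15.6% and 14.4% in N/D and 15.1% and 20.4% in N/D/S.

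Among the MAP genes, Map1b was the largest component in 3 libraries, at 52.5% and 41.0% of summed MAP TPM in N/D and 52.9% in N/D/S replicate 1, but held 14.2% in N/D/S replicate 2. Map4 held 46.7% in that library, against 19.3% in N/D replicate 2 and 4.50% and 5.23% in the replicate 1 libraries. The share of Mapt stayed between 23.96% and 32.0%. Map2 had 0.189 and 0.419 times the level of Mapt in N/D and 0.561 and 0.203 times in N/D/S. The mean log2 level of the 4 stathmins exceeded that of the 6 MAPs by 4.09 and 2.79 in N/D and by 3.03 and 3.45 in N/D/S. The lines overlapped in this measure, and the difference between them was −0.20, against 0.45 when N/D replicate 1 was left out and 0.01 when N/D/S replicate 1 was.

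**Figure D4:**
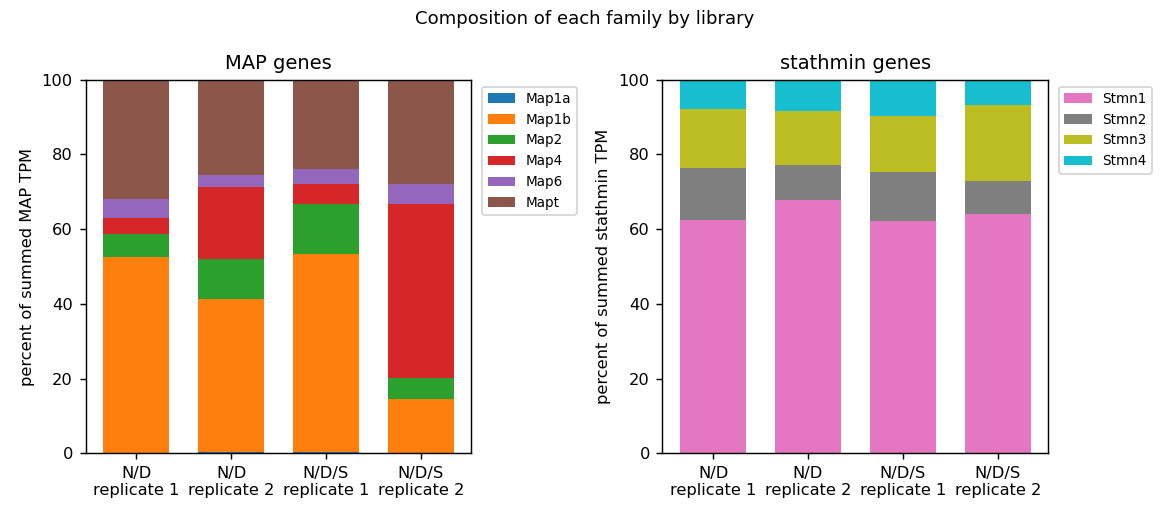
Share of each gene in the summed TPM of the 6 MAP genes (left) and of the 4 stathmin genes (right), as stacked percentages for each of the 4 libraries. Stmn1 holds 62.1% to 67.8% of stathmin TPM in every library, whereas Map4 holds 46.7% and Map1b 14.2% of MAP TPM in N/D/S replicate 2.

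Other regulators of microtubules were examined as 6 lists of 71 genes, of which 67 were tested and by limma 0 passed a Benjamini-Hochberg adjusted p of 0.05 and 0 an unadjusted p of 0.05. Their median log2 fold change was 0.19, against 0.26 over all tested genes. N/D replicate 1 listed 10 of these 67 genes at 0, Map6d1 and Map7 among them. Over all tested genes this share was 26.1%, and 0 of the 10 members were at 0 in any library. Medians of the lists were −0.04 for 15 other structural MAPs, 0.31 for 14 plus-end binding genes, 0.24 for 3 minus-end binding genes, 0.73 for 8 severing genes, 0.19 for 13 tubulin modifying genes and 0.09 for 14 kinases. Without N/D replicate 1 each of these medians was below 0, from −0.47 for severing genes to −0.15 for minus-end binding genes, and the median of all tested genes was −0.29.

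Of the 67 genes, 5 had both N/D/S libraries above both N/D libraries and 4 had both below, shares no higher than the 8.69% and 8.23% of all tested genes, so the genes that follow are a description. Atat1, which acetylates alpha-tubulin, had 333.8 and 390.1 TPM in N/D and 435.0 and 391.3 TPM in N/D/S, with the replicate 2 libraries of both lines nearly equal. Map1s, a short relative of Map1b, and the tubulin modifying genes Agbl5 and Hdac6, chosen here after their values were seen, were also above, each at or near 0 in N/D replicate 1. Map9, a MAP of spindles and cilia, had 138.0 and 59.3 TPM in N/D and 40.6 and 16.3 TPM in N/D/S (log2 fold change −1.77, standard error 1.06). The Map9 value was −1.17 without N/D replicate 1 and −2.51 with length centring. Agtpbp1, which removes glutamates from tubulin, had 47.6 and 36.5 TPM in N/D and 33.8 and 13.1 TPM in N/D/S. Clip1, a plus-end tracking protein, had 50.8 and 43.3 TPM in N/D and 41.5 and 15.6 TPM in N/D/S. Mapk8, the kinase JNK1, which phosphorylates MAPs and stathmins, had 7.18 and 7.52 TPM in N/D and 4.84 and 6.28 TPM in N/D/S. Their Benjamini-Hochberg adjusted limma p was 1 throughout.

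**Figure D5:**
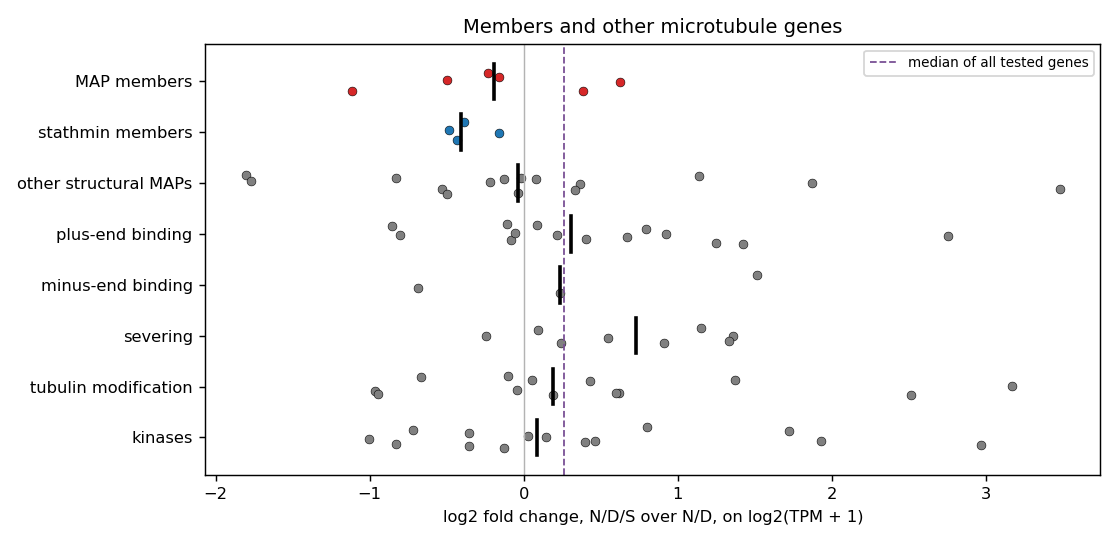
Log2 fold change (N/D/S relative to N/D, log2(TPM + 1) scale) for the MAP members (red), the stathmin members (blue) and 6 lists of other microtubule genes (grey), 1 point per gene, with vertical offsets only to separate points. Black bars are list medians, at −0.20 for MAPs and −0.41 for stathmins, and the dashed line is the median of all tested genes, 0.26.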

How the data were processed

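Reads were pseudoaligned by the authors with kallisto 0.44.0 to a mouse transcriptome index whose release is not given in the sources used here. The submitters' processing notes name GRCm38. The deposited values are TPM, 1 per gene symbol and library, with no scaling between libraries described. How transcripts were combined into genes is not given in the sources used here. Symbols turned into dates (26 rows in each table) were left out. The 34968 symbols shared by all libraries were joined, and the 12975 that reached 1 TPM in 2 or more libraries entered limma 3.58.1 in R 4.3.3 on log2(TPM + 1), 2 libraries against 2, without covariates, with Benjamini-Hochberg adjustment at 0.05. The study's own test (sleuth) needs files that were not used here. Transcript lengths and positions came from GENCODE M21 (GRCm38), for 12853 tested genes. No interval or floor is given, since depth is unknown. The members, the lists and the rules were chosen with earlier results of these data known. All members were named. From each other list, up to 2 genes a direction were named by size of change among those at 1 TPM or more in every library whose lines did not overlap, and 1 such gene is not reported here. Deviations from the line means correlated at 0.02 between same-numbered libraries. Python 3.11.15, pandas 2.3.3 and matplotlib 3.10.9 made the tables and plots.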

Additional observations from a re-analysis of the deposited data

How the results depend on the processing

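The adjusted p stayed above 0.05 for each of the 10 members under every alternative, and of the alternative values of their log2 fold changes 155 kept their direction and 15 changed it. The cause of the changes was not tested. Part of the kept values could not change, since 4 kinds of fit return the main fold change by construction. These were the fits without a filter, with 1 TPM required in every library, with a replicate block and with a variance trend. With all libraries, Map1a changed to −0.395 with quantile normalization, and Map4 to −0.353 when centred on length (also with the replicate block) and −0.45 when centred on the longest coding transcript, an alternative chosen after seeing the data. With one library left out, Map1a ranged from −0.63 to 1.88, Map1b from −2.52 to 0.289, Map2 from −1.31 to 0.842, Map4 from −0.731 to 1.498, Map6 from −0.416 to 0.099, Stmn3 from −0.407 to 0.091 and Stmn4 from −0.843 to 0.074, while Mapt (−0.848 to −0.15), Stmn1 (−0.606 to −0.258) and Stmn2 (−0.959 to −0.006) stayed below 0. The libraries that turned a sign were N/D replicate 1 (Map1a, Map4, Map6, Stmn3), N/D replicate 2 (Map2), N/D/S replicate 1 (Map1a) and N/D/S replicate 2 (Map1b, Map2, Map4, Map6, Stmn4). With one library left out, the median ranged from −0.725 to 0.034 for the members, −0.666 to 0.194 for MAPs and −0.725 to −0.094 for stathmins. The difference of stathmins and MAPs within a library was 0.349 when centred on length and lay between −0.844 and 0.448 when single libraries were dropped. The numbers of genes past the threshold were 0 and 0 except with a variance trend (5 higher, 1 lower) and without N/D replicate 2 (2664 higher, 245 lower, with 1 library assumed to vary like the others), so they ranged from 0 to 2664 and 0 to 245. In the fit with a replicate block, 0 genes passed, no call changed, and the standard error was 1.26 to 1.48 for the members. The labels do not say that a number marks a shared culture or batch, same-numbered tables share a symbol list, and the deviations of same-numbered libraries correlated at 0.02. A pseudocount of 0.5 and the scale of sleuth gave identical values. Measured by the median annotated transcript, the length dependence, which then compared only 49 genes of 8000 or more bases with those under 1500, was 0.016 for N/D replicate 1, 0.143 for N/D replicate 2 and 0.405 for N/D/S replicate 1, in place of −0.996, 0.584 and 1.00, while N/D/S replicate 2 kept its sign (−0.66 in place of −0.911). Without N/D replicate 1, 1 member (Stmn3) lay above, in place of 0.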

Other observations

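After each gene was centred on its mean over the 4 libraries, the mean profile of the members on the log2(TPM + 1) scale stood at −0.02 and 0.26 for N/D and at 0.27 and −0.52 for N/D/S, replicate 1 before replicate 2. The 5 tested genes nearest to that profile were Pigt, Eif4a2, Rbmxl1, Rab28 and Sod2, at root mean square distances of 0.016 to 0.034 log2 units over 4 libraries. Their values give no more than a likeness over 4 points. Among the members, Mapt and Stmn4 were nearest to each other (0.10), followed by Stmn1 with Mapt (0.13), a pairing of tau with stathmins of far shorter transcripts. Map1b was nearest to Map2 (0.65). Map4 was the farthest member from 8 of the other 9, and no member was closer to it than 1.26 log2 units.

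Map4 shared its split by replicate number with 7 other genes that were at least 2 log2 units higher in replicate 2 in both lines, had at least 100 TPM in both replicate 2 libraries and at least 1 TPM in every library. They were Arhgef40, Brms1l, Dynlt1-ps1, Gm28437, Gm48789, Vamp3 and Zfp131, named after their values were seen. Vamp3 had 26.6 and 27.9 TPM in the replicate 1 libraries (N/D first) against 135.8 and 231.8 TPM in the replicate 2 libraries. Brms1l had 43.0 and 33.3 TPM against 325.5 and 353.8 TPM.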
